A study of Homo sapiens with 4 samples.

Results

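The UBE2, UBE3 and UBE4 genes encode ubiquitin-conjugating enzymes and a small set of ubiquitin ligases, and here the m7G immunoprecipitation peaks on their mRNAs are described. Members were the genes whose name begins with UBE followed by a digit. RefSeq annotates 42 of them as protein-coding, out of 20056 protein-coding genes, and 1 of these 42, UBE2V1P16, carries a pseudogene-style name. Of the deposited peaks, 16 of 4326 in immunoprecipitation (IP) replicate 1 and 20 of 4862 in IP replicate 2 bore such a name. A member without a listed peak was counted as having none.

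The samples were untreated U2OS cells, an established human osteosarcoma line. Poly(A) RNA was immunoprecipitated with an antibody against N7-methylguanosine (m7G) in 2 IP libraries, with 2 input libraries that received no antibody. All libraries came from this 1 line, and whether the replicates were separate cultures is not stated in the labels, so their spread may be technical. For each IP replicate the authors deposited a separate table of peaks, in which they give every peak a p-value, a false discovery rate and a fold, the enrichment of the IP relative to input. The tables hold no counts, so the depth behind a peak is unknown and a single fold has no interval. Of 6 genes chosen as marks of an osteoblastic or mesenchymal line, 3 (COL1A1, SPARC and VIM) had a shared peak, against 10.5% of all protein-coding genes. RUNX2, ALPL and COL1A2 had no peak in either table. None of 7 haematopoietic, epithelial and hepatocyte markers had a peak in either table. A marker without a peak is not shown to be absent.

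Ubiquitin is attached to proteins by a relay. An activating enzyme (E1) charges a conjugating enzyme (E2), which hands ubiquitin to a substrate with the help of a ligase (E3). Most UBE2 genes encode E2 enzymes, some of which carry ubiquitin-like modifiers instead, and the UBE2V genes encode E2 variants without a catalytic cysteine. UBE3A, UBE3B and UBE3C are HECT ligases, which take ubiquitin onto their own cysteine, while UBE4A and UBE4B carry a U-box and can lengthen ubiquitin chains. The cap at the 5′ end of every such mRNA is itself an m7G, so distances to annotated starts are given with each peak.

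Peaks lay on 14 of the 42 members (33.3%) in replicate 1, against 15.9% of all protein-coding genes, and on 16 (38.1%) in replicate 2, against 17.4%. The 16 members included all 14 of replicate 1. A peak was called shared where a peak in each table covered a common base (1 bp or more) on 1 strand. By this rule 13 members (31%, Wilson 95% interval 19.1 to 46) carried a shared peak, against 10.5% of all protein-coding genes. With folds of 2 or more required of each replicate the members numbered 12 (28.6% against 8.82%), and with 4 or more they numbered 7 (16.7% against 5.17%). Each share lay above its background. No test was made of them, because the members were chosen with earlier results of these tables known. Expression is not measured in the tables, and its part in the difference was not tested.

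**Figure D1:**
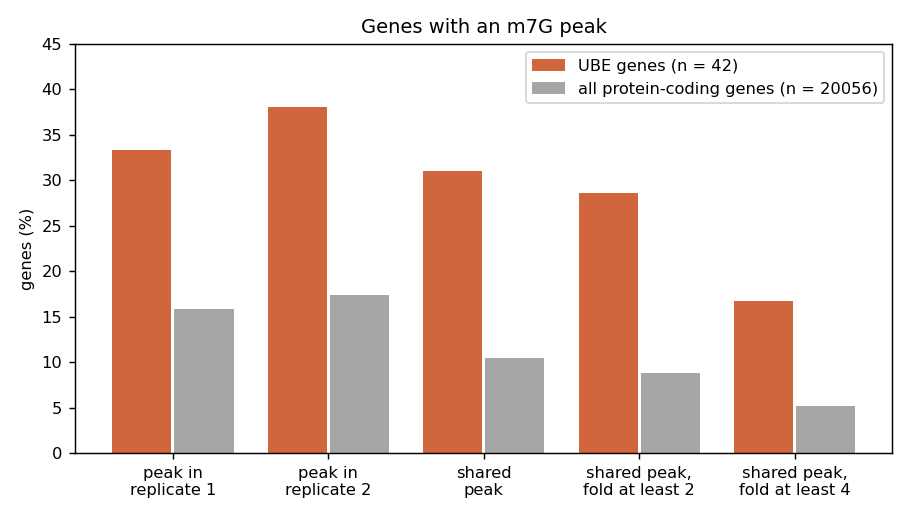
Bars give the percentage of genes with a peak (vertical axis) for the 42 UBE genes (orange) and all 20056 protein-coding genes (grey), by replicate, for shared peaks, and for shared peaks reaching a fold of 2 or 4 in both replicates. The UBE bar is the taller in each of the 5 pairs, 31% against 10.5% for a shared peak.

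Most member peaks recurred in the other replicate. In replicate 1, 15 of 16 member peaks (93.8%) overlapped a replicate 2 peak, against 62.6% of all replicate 1 peaks. In replicate 2, 15 of 20 (75%) overlapped a replicate 1 peak, against 55.9%. They formed 15 shared peaks on the 13 members. UBE2S and UBE2Z had 2 each, so 4.76% of members had more than 1 shared peak, against 2.05% of protein-coding genes.

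By role, shared peaks were found on 11 of 36 UBE2 genes and on 2 of 6 UBE3 and UBE4 genes. The share over all protein-coding genes was 10.5%. Both E2 enzymes that serve the anaphase-promoting complex (UBE2C and UBE2S) had one, as did 1 of 4 UBE2D genes, 1 of 3 UBE2E genes and 1 of 4 genes in the UBE2G and UBE2J branches, which act in endoplasmic reticulum degradation. Of 4 enzymes grouped here under ubiquitin-like modifiers, 1 had a shared peak (UBE2M). The group may be incomplete, and UBE2Z, which had shared peaks, was not placed in it. There was 0 of 3 for UBE2N, UBE2V1 and UBE2V2, which build lysine-63-linked chains and none of which had a peak in either table, and 0 of 2 for UBE2A and UBE2B, the RAD6 homologues. These groups are too small to be compared.

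The strongest peak lay on UBE2K, an E2 that builds lysine-48-linked chains by itself. Its fold was 15 in replicate 1 and 18.1 in replicate 2, higher than 92.3% and 96.5% of all peaks in those tables. The peak was at chr4:39698104-39698343 in replicate 1, plus strand (GRCh38). In replicate 2 it ran from 39698134 over 257 nt and continued in a block of 13 nt that began 39284 nt from the start. The next was UBE2M, the E2 for the ubiquitin-like protein NEDD8, which activates cullin ligases. It had folds of 9.54 and 10.5 at chr19:58558289-58558767 in replicate 1, minus strand, and the replicates differed by a factor of 1.1.

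The UBE2K and UBE2M peaks and 1 of the UBE2S peaks reached across the annotated start in both replicates. Their start windows from RefSeq (GRCh38.p14, 250 bases before to 50 bases after the start, 5′ to 3′ on the gene's strand) are shown because they hold the 5′ edge of these peaks. Capitals mark bases inside the peak of both replicates. The windows are chr4:39697886-39698185, plus strand, for UBE2K, chr19:58558562-58558861, minus strand, for UBE2M, and chr19:55407739-55408038, minus strand, for UBE2S.
UBE2K: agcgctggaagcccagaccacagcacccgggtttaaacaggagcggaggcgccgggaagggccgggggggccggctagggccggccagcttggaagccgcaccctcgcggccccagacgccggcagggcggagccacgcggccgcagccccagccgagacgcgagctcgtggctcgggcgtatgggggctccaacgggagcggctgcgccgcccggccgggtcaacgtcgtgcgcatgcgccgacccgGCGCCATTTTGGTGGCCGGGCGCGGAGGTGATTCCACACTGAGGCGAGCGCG
UBE2M: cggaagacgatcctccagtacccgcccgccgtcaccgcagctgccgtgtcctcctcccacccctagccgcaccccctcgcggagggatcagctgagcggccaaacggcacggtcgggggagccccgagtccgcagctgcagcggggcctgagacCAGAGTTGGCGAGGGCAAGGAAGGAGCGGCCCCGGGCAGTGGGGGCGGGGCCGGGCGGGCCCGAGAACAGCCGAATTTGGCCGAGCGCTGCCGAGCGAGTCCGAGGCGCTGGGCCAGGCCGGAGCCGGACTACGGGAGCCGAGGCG
UBE2S: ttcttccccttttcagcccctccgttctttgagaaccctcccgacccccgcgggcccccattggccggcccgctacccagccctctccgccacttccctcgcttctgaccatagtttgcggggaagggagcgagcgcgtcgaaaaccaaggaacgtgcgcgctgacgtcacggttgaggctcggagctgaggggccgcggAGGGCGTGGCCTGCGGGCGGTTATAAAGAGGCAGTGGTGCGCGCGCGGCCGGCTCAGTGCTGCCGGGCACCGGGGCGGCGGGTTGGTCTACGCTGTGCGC
In UBE2K 52 bases were in both peaks, 2 of them before the annotated start. In UBE2M it was 146 bases with 96 before the start, and in UBE2S 100 bases with 50 before the start. The start is the annotation's, and the start used in U2OS cells was not measured. Peak edges moved between replicates in coarse steps, for UBE2K from -32 to -2 nt of the start. The limits of the capitals are therefore not exact to the base. In replicate 2 the UBE2K peak crossed the start by less than such a step.

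UBE2Q1, an E2 of a divergent branch, had folds of 7 and 6.09. Its peaks had the same 5′ edge in both replicates, position 154558644 on chromosome 1, minus strand, which is 18 nt inside the gene span. UBE2H, the E2 of the CTLH ligase, had 9.25 and 4.49. This factor of 2.06 was the widest gap between replicates among the 15 shared peaks. Of all 2642 shared peaks, 95% showed a smaller gap than a factor of 2.42, so UBE2H lay inside that range. UBE2G1, an E2 linked to degradation from the endoplasmic reticulum and to cullin ligases, had 5.59 and 4.26, and its peaks had the same 3′ edge (4366465 on chromosome 17, minus strand). Peak edges moved between replicates in coarse steps, so the common edges of UBE2Q1 and UBE2G1 do not show agreement to the base.

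UBE2R2, a close relative of the cullin partner CDC34, differed from these in significance rather than fold. Its fold was only 4.42 and 4.07, but its log10 p was -73.1 and -84, stronger than 98.4% of peaks in each table. The peaks covered 509 and 599 nt in 1 block, the longest of the family in each replicate. UBE4B, a U-box ligase, was the reverse. Its folds were similar (4.63 and 5.26), but its log10 p was -3.6 and -5.78, stronger than 8.02% and 48.7% of peaks. CDC34 itself, also known as UBE2R1, falls outside the naming rule and was looked up after the values of UBE2R2 were seen. It had 1 shared peak with folds of 7.52 and 4.7.

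**Figure D2:**
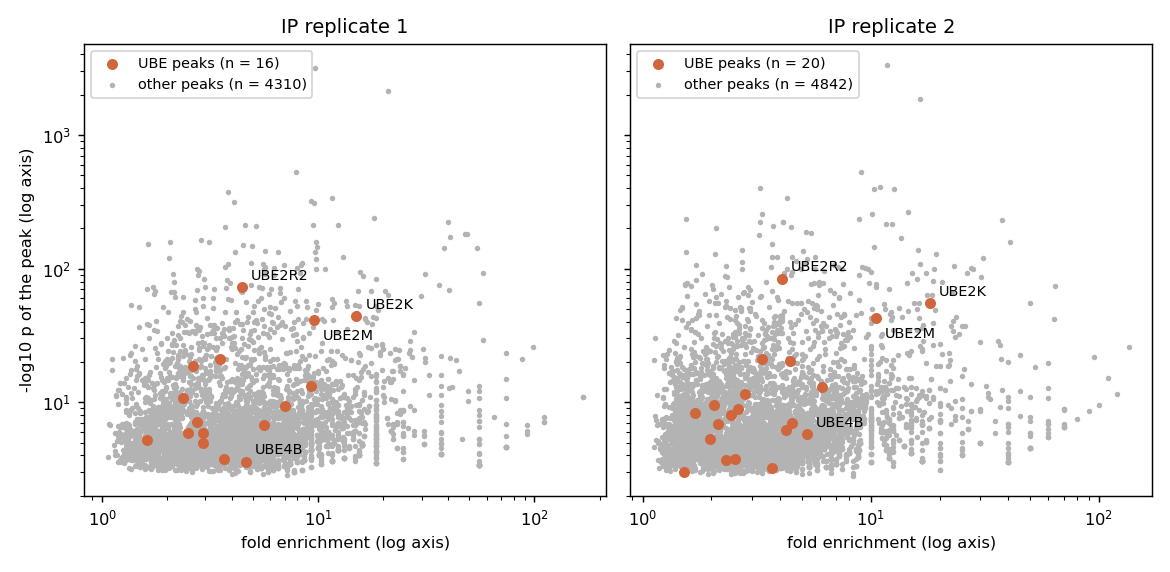
Each point is a peak, with fold enrichment (horizontal, log axis) and -log10 p (vertical, log axis), in 1 panel per IP replicate, with UBE peaks in orange over other peaks in grey. UBE2R2 stands above most peaks of similar fold, with log10 p of -73.1 and -84, while UBE4B lies low at -3.6 and -5.78.

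The remaining shared peaks were weaker. UBE2S, which extends lysine-11-linked chains for the anaphase-promoting complex, had 3.5 and 4.43 at its start. UBE2C, which begins those chains, had the lowest folds of all, 1.61 and 1.7. UBE2E1 had 2.93 and 2.81, and UBE2D2, a general-purpose E2 that works with many ligases, had 2.74 and 2.44. UBE2Z, the E2 charged by the activating enzyme UBA6, had 2.5 and 2.53 at its start, a factor of 1.01 apart. UBE3A, the HECT ligase lost in Angelman syndrome, had 2.93 and 2.31.

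Across the 15 shared peaks the replicates differed by a median of 0.20 on the log2 scale, a factor of 1.15, against 0.30, a factor of 1.23, across all shared peaks. The fold was higher in replicate 1 for 8 peaks and higher in replicate 2 for 7. The lower of both folds had a median of 3.5 for member peaks, with quartiles of 2.47 and 4.56, beside 3.53 for all shared peaks, with quartiles of 2.22 and 5.67. Both folds were 4 or higher for 7 of the 15 (46.7%), against 42.8% of all shared peaks. By fold the shared member peaks therefore sat near the middle of the tables, and the share reaching 4 was near the background.

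**Figure D3:**
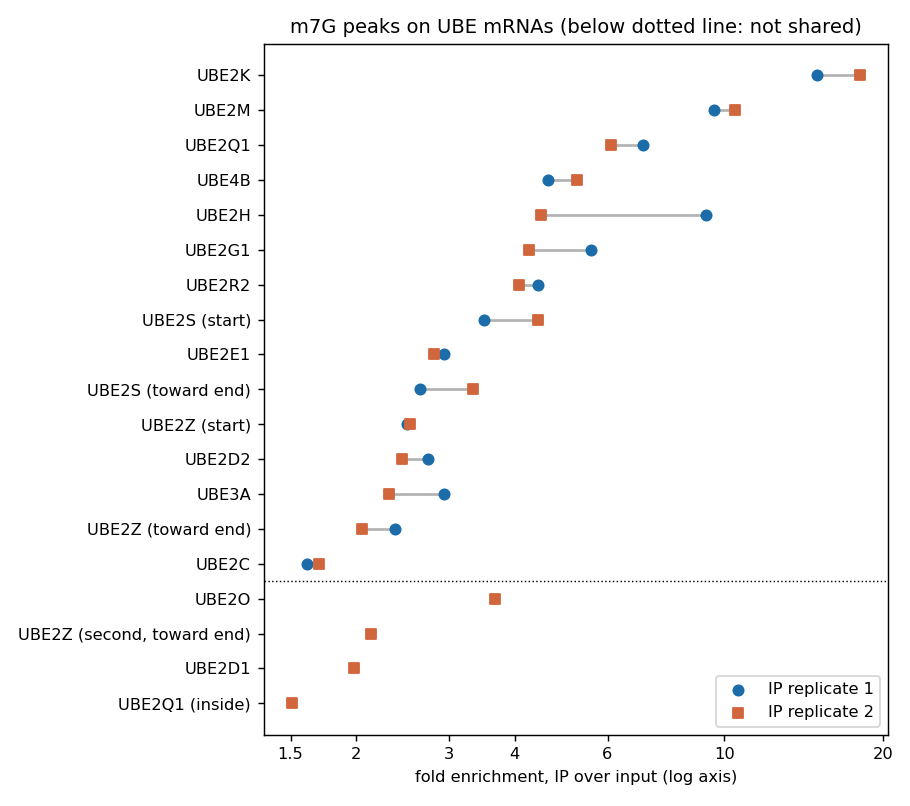
Each row is 1 of the UBE peaks described here, with its fold enrichment of IP over input (log axis) in IP replicate 1 (blue circles) and IP replicate 2 (orange squares). The 15 shared peaks above the dotted line are ordered by the lower fold, from UBE2K (15 and 18.1) to UBE2C (1.61 and 1.7), and the longest connecting line is that of UBE2H. Below it are the replicate 2 peaks of UBE2O, UBE2Z, UBE2D1 and UBE2Q1 that replicate 1 lacks.

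**Figure D4:**
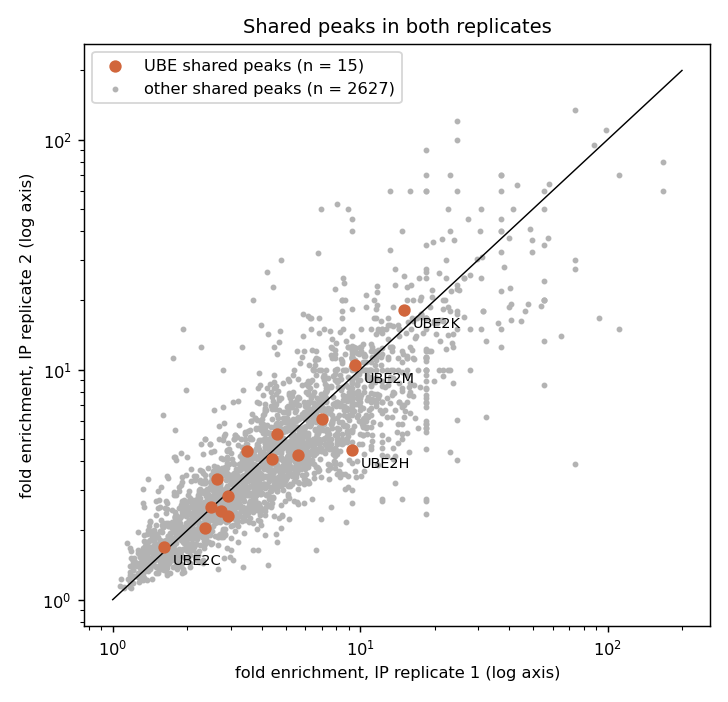
Fold enrichment of each shared peak in IP replicate 1 (horizontal) and IP replicate 2 (vertical), both on log axes, with the 15 UBE peaks in orange, the other shared peaks in grey and the line of equality. The UBE points lie close to that line, with a median difference of a factor of 1.15, and UBE2H at 9.25 and 4.49 lies farthest from it.

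Many of the highest folds in these tables are whole multiples of 1 value, 18.5 in replicate 1 and 10 in replicate 2. No member peak was at such a multiple (within 0.05). Only UBE2K and UBE2M in replicate 2 were at or above the step at all. In replicate 1 no member reached the step, so none could be at a multiple there. Folds below the step were not checked for recurring values. In replicate 1 the 9.25 of UBE2H and the 4.63 of UBE4B are simple fractions of the 18.5 step. They also occur on other genes, such as CPTP and COL16A1. These 2 folds may thus belong to the same series of values, which was not tested. The 9.25 is also 1 side of the widest gap between replicates among the shared member peaks.

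The shared member peaks gathered at the 5′ ends. Measured from the midpoint to the start of the annotated gene span, 8 of 15 (53.3%) lay within 200 nt, against 22.6% of all shared peaks, and 10 (66.7%) lay within 500 nt, against 35%. With any block of the peak counted, 10 lay within 200 nt of the span start, against 32.1%. For 2 members the annotated span begins far upstream of another listed start. The midpoints on UBE2D2 lay 35371 and 35401 nt from its span start, and those on UBE2R2 2420 and 2345 nt. RefSeq's start table places a start of UBE2D2 64 nt upstream of the first edge of the replicate 1 peak and 124 nt upstream of that in replicate 2. For UBE2R2 these distances were 174 and 54 nt.

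With those starts used, and the span start where the table lists none (UBE2Q1, UBE2H and UBE2C), 12 of 15 shared peaks (80%) had a block within 200 nt of a start. The share over all shared peaks was 35.3%. Within 500 nt it was 13 (86.7%) against 44%. This measure was chosen after the positions were seen, and the shares were not tested. Each of the 13 members had exactly 1 such peak. Its first edge lay between -156 and 356 nt of the start in replicate 1, with a median of 51, and between -96 and 416 nt in replicate 2, with a median of 25. UBE2M and UBE3A were the extremes in both. UBE3A has 3 listed starts, and distances are from the nearest one upstream of its peak.

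**Figure D5:**
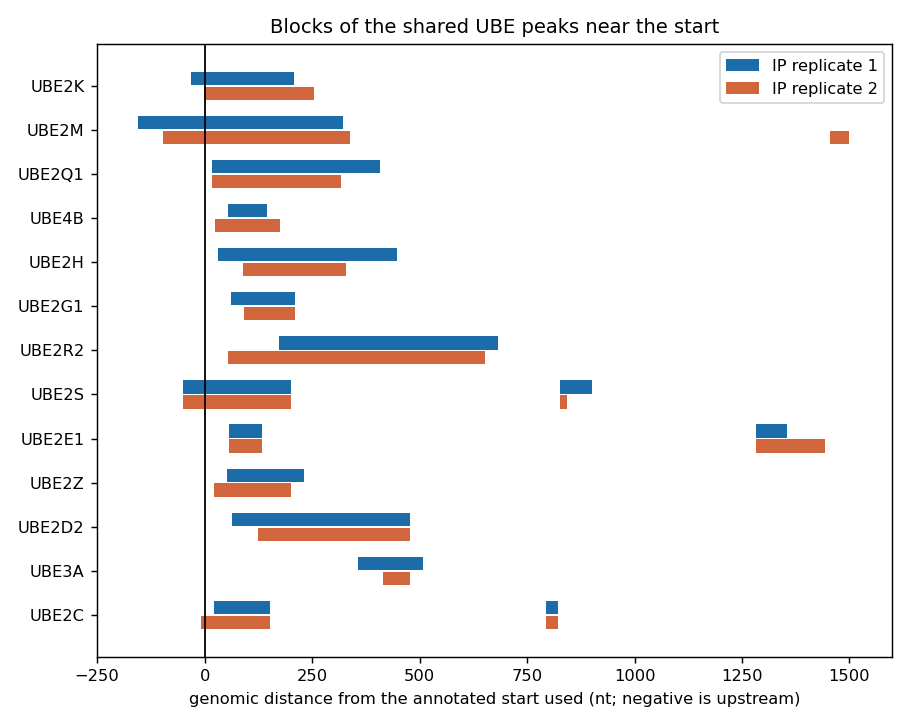
Blocks of the shared peaks on the 13 UBE members, as genomic distance from the annotated start used (horizontal axis, nt, negative upstream), in IP replicate 1 (blue) and IP replicate 2 (orange). Every gene except UBE3A, at 356 and 416 nt, has a block within 200 nt of the start in both replicates, and blocks beyond the range drawn are left out.

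For 6 members whose peak began inside the annotated start, the first 50 bases from that start are shown, since peak edges are measured from there. The replicate 2 peaks of UBE4B and UBE2Z begin 25 and 22 nt from the start, so the later bases of these stretches lie inside them. Capitals mark the pattern GANGAN (N is any base) on the strand shown. It was searched because GA-rich contexts have been described around internal m7G. Positions in GRCh38.p14 are chr5:139561339-139561388 (plus) for UBE2D2, chr3:23805955-23806004 (plus) for UBE2E1, chr17:4366626-4366675 (minus) for UBE2G1, chr9:33817160-33817209 (plus) for UBE2R2, chr17:48908407-48908456 (plus) for UBE2Z and chr1:10032958-10033007 (plus) for UBE4B.
UBE2D2: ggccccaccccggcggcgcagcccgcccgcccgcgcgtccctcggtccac
UBE2E1: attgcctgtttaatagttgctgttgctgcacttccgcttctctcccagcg
UBE2G1: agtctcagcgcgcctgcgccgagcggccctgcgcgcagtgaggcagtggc
UBE2R2: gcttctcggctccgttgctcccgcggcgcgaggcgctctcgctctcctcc
UBE2Z: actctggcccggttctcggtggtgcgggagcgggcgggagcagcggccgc
UBE4B: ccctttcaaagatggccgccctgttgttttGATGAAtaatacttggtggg
The 6 sequences differed widely in base composition, with 88% G and C in UBE2D2, 74 to 78% in UBE2G1, UBE2R2 and UBE2Z, 50% in UBE2E1 and 46% in UBE4B. Only UBE4B held GANGAN here, in bases covered by its replicate 2 peak and not by its replicate 1 peak. Its peaks began at 25 nt in replicate 2 and 55 nt in replicate 1. Edges moved in coarse steps, so this difference between replicates is not resolved. Over all members with a window, this 50-base stretch held it in 1 of 10 with a shared peak, in 1 of 24 without, and in 18.4% of 15843 protein-coding genes. In UBE2D2, UBE2E1, UBE2G1 and UBE2R2 this stretch lay outside the peaks of both replicates. The counts therefore do not show whether the peaks hold the pattern. Sequence beyond the start windows was not used here.

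Over the whole 300-base start window, members with and without a shared peak both had higher medians for G and C content and for CpG sites than protein-coding genes as a whole, and both held a GC box more often. These differences were not tested. The median content of G and C was 73% in the 10 members with a shared peak and 70.5% in the 24 without, against 62.7% over protein-coding genes. The median number of CpG sites was 35.5 and 34.5, against 22. The GC box GGGCGG was present on either strand in 9 of 10 and 19 of 24 windows, against 58.5%. The CCAAT box was present on either strand in 5 of 10 and 6 of 24, against 36.4%, and GANGAN on either strand in 8 of 10 and 20 of 24, against 88.3%. TATAAA was present on either strand in 1 of 10 (UBE2S, where it lies within the capitals above) and 0 of 24, against 9.63%. Patterns were counted separately, and matches of different patterns may overlap. No match says only that these letters are not in the window. Most of the window lies before the annotated start, so these counts do not show whether a match lies inside a peak.

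A pair of members also had shared peaks far from the start. On UBE2S a peak at chr19:55401461-55401699, minus strand, had folds of 2.64 and 3.33 with midpoints 1835 and 1820 nt from the annotated gene end. The span of RPL28, on the opposite strand, also covers it. On UBE2Z a peak at chr17:48928524-48928673, plus strand, had 2.37 and 2.05 with midpoints 458 and 413 nt from the gene end. In both genes the fold was lower than at the start, in each replicate. The log10 p of this UBE2Z peak was nonetheless the stronger, -10.7 and -9.57, against -5.85 and -3.78 at the start.

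Several shared peaks extended over more than 1 block. UBE2C had 3 blocks in both replicates, the first reaching to 152 nt from the start and the others beginning 793 and 2746 nt from it. UBE2E1 had 2 blocks in both, with the first identical, from 57 to 133 nt. Given the coarse steps of the edges, this does not show agreement to the base. Overall 4 of 16 member peaks in replicate 1 (25%) and 7 of 20 in replicate 2 (35%) had several blocks, against 30.8% and 34.7% of all peaks. Member peaks had a median length of 209.5 and 238 nt, against 151 nt in both full tables. Exon annotation was not used here, so the blocks were not assigned to exons.

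Some peaks were listed in a single replicate. UBE2D1, a paralogue of UBE2D2, had a peak in replicate 2 alone, with a fold of 1.98 at 62 nt from its start. UBE2O, a large hybrid of E2 and E3, also had one in replicate 2 alone, with a fold of 3.67. Its false discovery rate was 0.0229, near the limit of the table, whose weakest peak was at 0.0479. UBE2Q1 and UBE2Z each had a further peak in replicate 2, with folds of 1.51 and 2.13. The false discovery rate of this UBE2Q1 peak was 0.0331, nearer to the limit than that of UBE2O.

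The other 26 members had no peak in either table. They were UBE2A, UBE2B, UBE2D3, UBE2D4, UBE2E2, UBE2E3, UBE2F, UBE2G2, UBE2J1, UBE2J2, UBE2L3, UBE2L5, UBE2L6, UBE2N, UBE2Q2, UBE2QL1, UBE2T, UBE2U, UBE2V1, UBE2V1P16, UBE2V2, UBE2W, UBE3B, UBE3C, UBE3D and UBE4A. Over all protein-coding genes 21.6% had a peak in either table, against 38.1% of members. A missing peak does not show missing m7G, and expression and depth are not measured in these tables.

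Members with a shared peak had a median gene span of 85686 nt, and those without one 39612 nt. Over protein-coding genes the median was 23970 nt for the 2101 with a shared peak and 24092 nt for all 20056. Some members have close copies in the genome, from which their reads may be hard to separate. RefSeq lists pseudogenes named after 5 of the 13 members with a shared peak, among them 5 for UBE2C and 2 each for UBE2S and UBE3A, and after 9 of the 29 without. The treatment of reads with several matches is not stated in the labels or headers. Antisense genes lie opposite the start peaks of UBE2E1 (UBE2E1-AS1) and UBE2R2 (UBE2R2-AS1). The library kit keeps the strand, per the labels' protocols, and the peaks were listed on the strand of the UBE gene. The span of a long noncoding RNA gene, LOC105371814, overlaps the start peak of UBE2Z in both replicates. Its strand is not listed, so strand cannot separate it from UBE2Z here.

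The rest of the ubiquitin relay was described with 8 lists of 84 genes. Of these, 13 genes (15.5%) had a shared peak, against the 10.5% of all protein-coding genes. Among 9 activating enzymes only SAE1, a subunit of the SUMO activator, had one, with folds of 2.93 and 3.01. Of 8 ubiquitin-like modifiers, SUMO3 (1.92 and 1.66) and NEDD8 (1.41 and 1.82) had weak ones. Of 6 other E2-like genes, 0 had one.

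Of 25 further HECT ligases, 5 had a shared peak, among them NEDD4L at 9.25 and 11.2 and WWP1 at 12.3 and 8.46. Of 5 other U-box ligases, STUB1, the co-chaperone ligase CHIP, had one (4.29 and 5.31). Of 14 RBR ligases, which combine features of RING and HECT types, ARIH1 (7.97 and 6.94) and ARIH2 (2.46 and 1.78) had one. Of 13 cullin-RING scaffold genes, CUL3 (4.48 and 5.62) and ELOB (1.47 and 1.66) had one. Over these lists the median of the lower fold was 4.29, beside 4.07 for the strongest shared peaks of the 13 UBE members.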

How the data were processed

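The deposited data are 2 tables of peaks from U2OS cells, 1 per IP replicate, so replicates were not pooled before calling. STAR and the build GRCh38 are named, without a version or role, in the submitters' processing notes, and no source used here gives the peak caller. Per the file headers, each deposited peak has a fold enrichment (a linear ratio) and a p-value, with the log10 of the p-value and of its false discovery rate treated as a score. Scaling of the fold for library size is not stated.

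Blocks were overlapped by strand and mutually best overlaps kept as pairs. Names were matched to RefSeq (GRCh38.p14) by symbol or synonym within 2000 nt, for 99.86% and 99.84% of peaks. Start windows, with strand, came from RefSeq's start table, which holds 34 of the 42 members. For window composition 1 window per gene was used. Distances are genomic, and coordinates 1-based. The overlap search was tested only on simulated peaks that were shifted slightly or moved far away. That test does not show how unrelated peaks lying close together are handled.

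No test between groups was possible: the 2 input samples have no table of their own here. Members, lists and roles were chosen with earlier results of these data known. Named genes are every member, and up to 3 genes per list by the lower fold; some items are not reported here. Wilson intervals cover counting error only. Software was Python 3.11.15 with scipy 1.17.1, pandas 2.3.3, matplotlib 3.10.9 and numpy 2.4.6.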

Additional observations from a re-analysis of the deposited data

How the results depend on the processing

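The count of 13 members with a shared peak stayed within a factor of 1.5 under 50% reciprocal overlap (12, without UBE3A), midpoints within 100 nt (12, without UBE2E1) and the peaks of each table at or past its median p-value (10, without UBE2C, UBE3A and UBE4B), but fell to 7 when each replicate had to reach a fold of 4. UBE2E1 was lost although its first block was the same in both replicates. Its midpoint, taken in genomic distance, lay in the first block in replicate 1 (131 nt) and the second in replicate 2 (1324 nt). This also kept UBE2E1 out of the 8 peaks with a midpoint near the span start. With a single table no overlap could be required, and members with any peak numbered 16 without replicate 1 and 14 without replicate 2. Member peaks near the span start numbered 8, and 5 among the peaks past the median p-value. They numbered 9 and 8 without replicate 1 and without replicate 2. The RefSeq start table, used only where it lists a start (an alternative chosen after seeing the data), gave 9 peaks with a block within 200 nt and 10 within 500 nt. The 13 genes of the 8 pathway lists became 7 past the median p-value, 7 with a fold of at least 4, and 22 to 23 with a single table. The single-table counts again took any peak, without the overlap rule, and fewer peaks entered under the stricter settings. No other cause was tested. Of the 33 alternative values for counts and medians, 27 stayed within their limits. Choosing the strongest peak by p-value gave UBE2Z 2.05 instead of 2.5. No paired analysis was possible because the input samples have no table of their own here. With no counts, depth sets an unknown limit on weak peaks.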
